A study of Mus musculus with 5 samples.

Results

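The 10 genes described here encode immediate early transcription factors and were chosen by symbol: Fos, Fosb, Fosl2, Jun, Junb, Jund, Egr1, Ier2, Klf4 and Klf6. All 10 were among the 18783 genes of the authors' table. The cells were primary astrocyte cultures from newborn C57BL/6 mouse pups (P0-P1), harvested on day 12 in vitro and sequenced as polyadenylated RNA. Cultures of the Aβ+DFMO group (1 library) received amyloid-β at 1 µM together with 50 µM DFMO (difluoromethylornithine), an irreversible inhibitor of ornithine decarboxylase. Cultures of the Aβ group (2 libraries) received 1 µM amyloid-β alone, and Control cultures (2 libraries) are labelled naive. Both treatments started on day 7 in vitro and lasted 5 days, so the RNA was taken long after the minutes to hours in which these genes respond to a new stimulus. The labels do not say which libraries came from separate cultures, and the spread behind the p-values may be technical.

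Immediate early genes are transcribed from factors already present in the cell, without new protein synthesis, when growth factors, calcium, stress or injury activate MAP kinases. FOS proteins pair through a leucine zipper with JUN proteins to form AP-1, which binds the TRE element in DNA, whereas JUN proteins also pair among themselves. EGR1 and the KLF proteins bind GC-rich DNA through zinc fingers, and many transcripts of the class are short-lived because AU-rich elements in the 3′ UTR speed their decay. In astrocytes, these genes are known to respond to injury, to serum and cytokines, and to the handling of the cells.

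The table gives a mean for each group on a normalized scale and no value per library, so the spread between libraries of a group cannot be shown. The Aβ+DFMO library had 4825677 reads, between 9.72 and 21.9 times fewer than the others, whose totals ran between 46886111 and 105544237. In that library 1 read was worth 7.45 normalized units, a value recovered from the steps between low values, of which 81.5% were whole multiples within 0.05 of a read. The 10 genes rested on 8 to 1017 reads there, and all except Jund came out as whole numbers within that tolerance. Intervals given for that library are exact Poisson intervals at 95% and cover counting error only. The astrocyte markers of a list of 10 were all measured, and the authors' means of Gfap, the astrocyte intermediate filament, were 41382.8 in Aβ+DFMO, 57494.6 in Aβ and 57209.3 in Control.

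Upstream sequences are shown for Junb and Klf6, which passed the test of Aβ+DFMO against Aβ in opposite directions, and for Fos and Jun, which did not pass. Each is the 250 bases before the RefSeq transcription start in GRCm38.p6, read 5′ to 3′ along the gene, and capitals mark the CCAAT box on either strand, the TATA box TATAAA, the CRE-like TGACGTA and the TRE-like TGACATCA.
Junb, chr8:84978749-84978998, minus strand: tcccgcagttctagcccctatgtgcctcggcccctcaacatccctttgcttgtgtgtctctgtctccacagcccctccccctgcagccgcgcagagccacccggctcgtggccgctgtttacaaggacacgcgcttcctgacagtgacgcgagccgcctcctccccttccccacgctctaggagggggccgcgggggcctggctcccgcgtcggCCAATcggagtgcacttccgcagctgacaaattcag
Klf6, chr13:5861239-5861488, plus strand: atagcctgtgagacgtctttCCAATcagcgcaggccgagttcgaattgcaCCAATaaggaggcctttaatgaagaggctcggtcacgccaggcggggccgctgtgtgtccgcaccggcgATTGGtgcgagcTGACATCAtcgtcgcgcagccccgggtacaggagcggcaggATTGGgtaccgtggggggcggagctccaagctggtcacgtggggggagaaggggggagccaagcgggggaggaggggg
Fos, chr12:85473640-85473889, plus strand: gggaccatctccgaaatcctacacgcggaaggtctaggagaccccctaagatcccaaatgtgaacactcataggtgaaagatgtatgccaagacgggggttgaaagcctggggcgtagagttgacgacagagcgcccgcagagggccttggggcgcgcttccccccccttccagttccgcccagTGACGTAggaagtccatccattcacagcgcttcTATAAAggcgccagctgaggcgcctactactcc
Jun, chr4:95052223-95052472, minus strand: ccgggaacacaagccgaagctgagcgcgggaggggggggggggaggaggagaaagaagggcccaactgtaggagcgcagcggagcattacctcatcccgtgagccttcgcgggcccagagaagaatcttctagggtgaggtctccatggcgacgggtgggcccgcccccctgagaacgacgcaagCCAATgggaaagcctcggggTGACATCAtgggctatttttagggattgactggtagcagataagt

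RefSeq windows matched 8 of the 10 genes; Egr1 and Ier2 had no entry. Each motif was searched on both strands of the 250 bases, and its share was taken over 32851 windows of the same length. The TRE-like TGACATCA lay at -45 to -38 in Jun and at -119 to -112 in Klf6, counted from the base before the start as -1, and in 2.93% of all windows. Fos held the CRE-like TGACGTA at -66 to -60, found in 1.08% of all windows, and TATAAA at -33 to -28, found in 12.4%. These variants were chosen after the windows had been read. A CCAAT box occurred once each in Jun and Junb and 4 times in Klf6, against 33.8% of all windows with at least 1 copy. The CRE core TGACG, which overlaps the CRE-like motif, occurred in Fos, Fosb, Junb and Klf4 and in 17.8% of all windows. None of the 8 windows held the full CRE (TGACGTCA, 1.55% of all windows), the full TRE (TGACTCA, 4.46%), the EGR site GCGTGGGCG (0.536%) or a CArG box, the element bound by SRF (1.47%). Sequence beyond these 250 bases was not searched, so whether the genes hold such sites elsewhere is not known from this search. GC boxes (GGGCGGG, 23.4% of all windows) occurred in Fosb, Jun and Klf4, and the KLF core CACCC (52.0%) in Fosb, Fosl2, Jun, Junb and Jund. The RefSeq start of Jund lies 1210 bases upstream of its GENCODE start, and its window, with 47.6% GC, is not shown. The Fosl2 window (chr5:32136222-32136471, plus strand) lies downstream of its GENCODE start at 32135801, within the annotated gene.

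Levels of the 10 genes spanned a wide range within every group. Levels are compared between genes as normalized units per kb of the longest GENCODE transcript. Jund, the JUN protein that most resting cells hold, stood at 986.8 units per kb in Aβ+DFMO, 1864.1 in Aβ and 1894.1 in Control, where it was the highest of the 10. Fosb, an activity-dependent FOS protein, was the lowest at 15.8 units per kb in Aβ+DFMO, 14.9 in Aβ and 14.9 in Control. The order in Control and in Aβ was Jund, Klf6, Jun, Fos, Fosl2, Junb, Ier2, Egr1, Klf4 and Fosb, from high to low. In Aβ+DFMO Klf6 came first, followed by Jun, Jund, Fosl2, Fos, Ier2, Egr1, Junb, Klf4 and Fosb. That order depends on the trend of the Aβ+DFMO ratio over GC content: without it Jund again came first at 1591.1 units per kb, before Jun at 1549.9 and Klf6 at 1516.8. Counting intervals of neighbours in the order of the deposited Aβ+DFMO means overlapped for Fosl2 (456.9 to 551.9 units per kb) and Fos (413.1 to 580.2), and among Ier2 (173.3 to 311.6), Egr1 (188.1 to 265.6) and Junb (145.8 to 262.2). Those of Jun (1148.7 to 1363.2 units per kb) and Jund (861.0 to 1125.9) did not overlap. For Aβ and Control no interval can be given, so which of their neighbours differ is unknown, and the length used for Jund depends on which annotated start is taken.

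**Figure D1:**
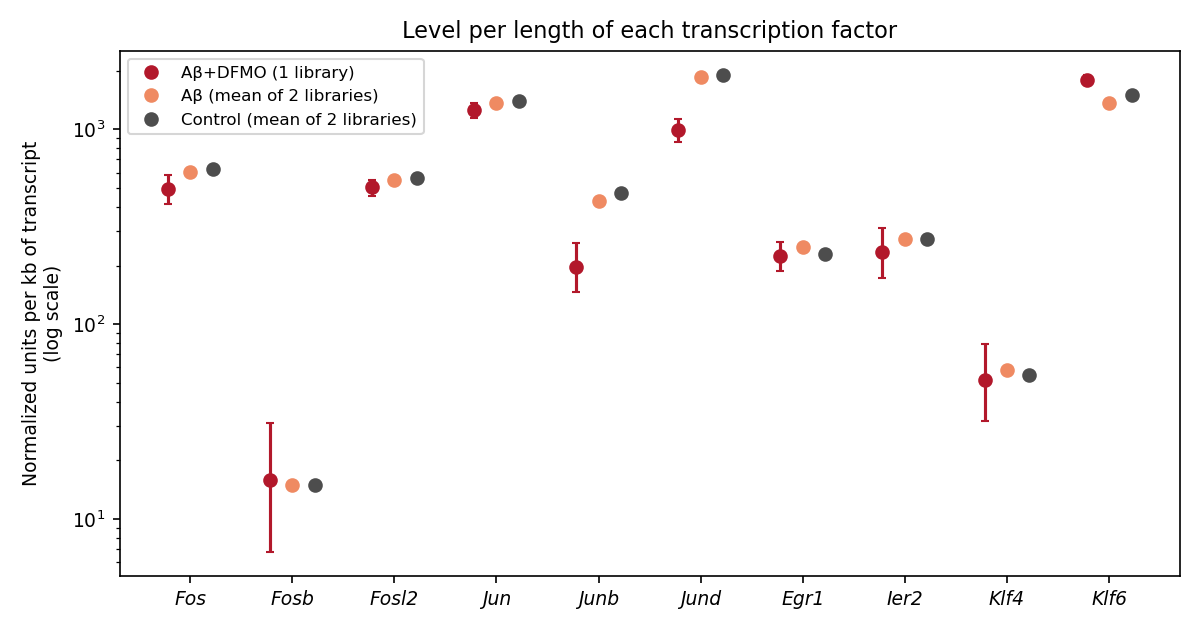
Level of each gene in normalized units per kb of transcript (log axis), with points for Aβ+DFMO, Aβ and Control; bars on the Aβ+DFMO points are exact Poisson 95% intervals of its reads, and the means of the other groups carry no error. The points of Junb and Jund lie lower in Aβ+DFMO than in both other groups, that of Klf6 lies higher, and for 6 of the 10 genes the 3 means lie within 1.2-fold.

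Junb and Jund fell and Klf6 rose in Aβ+DFMO against Aβ in the authors' DESeq2 test at an adjusted p under 0.05, and the other 7 genes did not pass. The question of this comparison was what inhibition of ornithine decarboxylase changes in Aβ-treated cultures. These 3 of 10 stand beside 9.18% of all genes called in either direction, 4.0% higher and 5.18% lower (751 and 973 genes, or 887 and 881 after recentring on the median of genes whose Aβ mean reached 200), and beside 14.3% of the 11780 genes whose Aβ mean reached 200, a level that 8 of the 10 reached. The median log2 ratio of the 10 genes was −0.17, against 0.008 over all genes. All p-values of this comparison assume that the single, shallow Aβ+DFMO library varied like the libraries of the other groups. With the trend over GC content taken out, as described further on, none of the 3 passed.

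The JUN genes encode the obligate partners in AP-1. Junb, a JUN protein that often restrains JUN, had authors' means of 357.7 in Aβ+DFMO (48 reads, counting interval 263.7 to 474.3), 773.4 in Aβ and 856.6 in Control. The Aβ+DFMO interval lay below both other means, and the log2 ratio to Aβ in the authors' deposited table was −1.11 (implied standard error 0.266, adjusted p = 0.00127). The annotated extent of Junb (GRCm38 chr8:84974484-84978718, minus strand) overlaps Prdx2 on the other strand. Jund had authors' means of 1646.0 in Aβ+DFMO (220.87 reads, counting interval 1436.1 to 1878.0), 3109.4 in Aβ and 3159.3 in Control. Its log2 ratio of −0.92 (implied standard error 0.152, adjusted p = 4.01e-07) was the most firmly called of the 10 in the authors' deposited table. Jund (chr8:70698949-70700616, plus strand) is overlapped by the antisense gene Gm11175, and no source used here says whether reads were counted by strand. Jun, the founding member and the strongest activator of the family, had authors' means of 3994.2 in Aβ+DFMO (536 reads, counting interval 3663.2 to 4347.1), 4355.6 in Aβ and 4436.1 in Control. These means lay close together, with a log2 ratio of −0.13 in the authors' deposited table (implied 95% interval −0.35 to 0.10, adjusted p = 0.627). The antisense gene Junos overlaps Jun (chr4:95049034-95052222, minus strand).

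Per length, the summed level of the 3 JUN transcripts was 2437.1 units per kb in Aβ+DFMO, 3657.5 in Aβ and 3758.6 in Control. Jun made up 51.4% of that sum in Aβ+DFMO, 37.3% in Aβ and 37.0% in Control. Jund made up 40.5% in Aβ+DFMO, 51.0% in Aβ and 50.4% in Control, and Junb 8.11%, 11.7% and 12.6% in the same groups. Jun thus took the largest share in Aβ+DFMO, and Jund in Aβ and in Control. With each Aβ+DFMO ratio freed of its GC trend, as described further on, Jund led in Aβ+DFMO as well, with 46.1% against 44.9% for Jun and 8.92% for Junb. These shares are descriptions without a test.

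**Figure D2:**
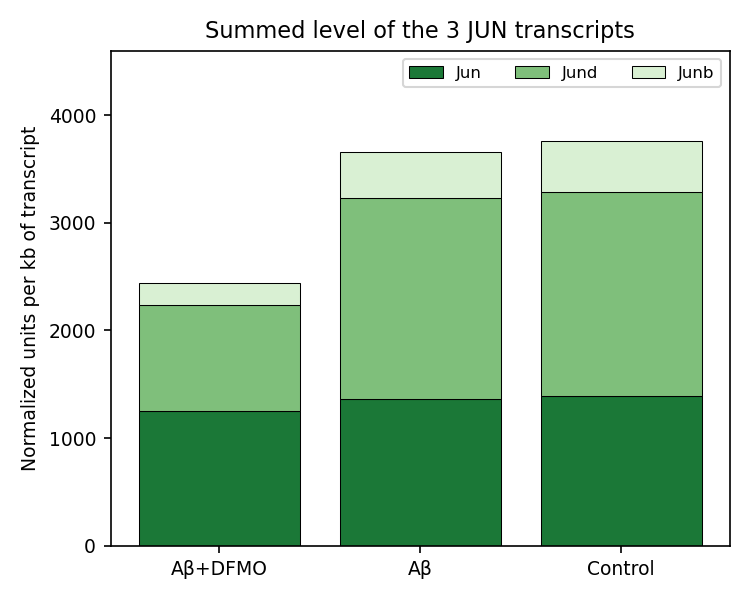
Summed level of Jun, Jund and Junb in normalized units per kb of transcript, stacked by gene, for Aβ+DFMO (1 library), Aβ and Control (authors' means of 2 libraries each); no error can be drawn for the sums. The Jun segments are of like height in the 3 bars, and the Jund and Junb segments are shorter in Aβ+DFMO.

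Klf6, a zinc finger factor induced by injury and by growth factors, was the only one of the 10 genes called higher in Aβ+DFMO against Aβ. Its authors' means were 7579.0 in Aβ+DFMO (1017 reads, counting interval 7120.3 to 8059.5), 5784.9 in Aβ and 6306.8 in Control. The Aβ+DFMO interval lay above both other means, and the log2 ratio to Aβ was 0.39 in the authors' deposited table (implied standard error 0.105, adjusted p = 0.00539). Klf6 occupies chr13:5861482-5870394 (GRCm38, plus strand) and has no annotated overlapping gene. Klf4, a related factor known for its part in pluripotency, had authors' means of 156.5 in Aβ+DFMO (21 reads, counting interval 96.9 to 239.2), 177.1 in Aβ and 167.1 in Control. Both other means lay inside its counting interval, and its implied 95% interval for the log2 ratio in the authors' deposited table ran from −1.03 to 0.67, so a change of 1.5-fold either way was not detectable at this depth.

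FOS proteins cannot bind DNA without a JUN partner. Fos, the gene that defines the class, had authors' means of 1035.9 in Aβ+DFMO (139 reads, counting interval 870.8 to 1223.1), 1267.0 in Aβ and 1326.2 in Control. Its counting interval lay below both other means, but the log2 ratio of −0.29 in the authors' deposited table missed the threshold (implied 95% interval −0.64 to 0.06, adjusted p = 0.378). Fosl2, a FOS protein with slower and longer expression, had authors' means of 3286.5 in Aβ+DFMO (441 reads), 3586.4 in Aβ and 3688.7 in Control. Its log2 ratio was −0.13 in the authors' deposited table (implied 95% interval −0.37 to 0.12, adjusted p = 0.646). Fosb rested on 8 reads, with authors' means of 59.6 in Aβ+DFMO (counting interval 25.7 to 117.5), 56.2 in Aβ and 56.2 in Control. Its implied 95% interval in the authors' deposited table ran from −1.31 to 1.48, so a change of 1.5-fold either way was not detectable at this depth. The remaining FOS gene, Fosl1, was not among the 18783 genes of the authors' table.

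Egr1, a zinc finger factor that growth factors and neuronal activity induce, had authors' means of 1006.1 in Aβ+DFMO (135 reads, counting interval 843.5 to 1190.8), 1121.6 in Aβ and 1032.0 in Control. All 3 means lay within the counting interval, and the log2 ratio of −0.16 in the authors' deposited table missed the threshold (implied 95% interval −0.53 to 0.21, adjusted p = 0.731). Ier2, a small nuclear protein described as a regulator of transcription, had authors' means of 357.7 in Aβ+DFMO, 415.2 in Aβ and 417.0 in Control. It rested on 48 reads in Aβ+DFMO, as many as Junb, and both other means lay inside its counting interval of 263.7 to 474.3. Its log2 ratio was −0.22 in the authors' deposited table (implied 95% interval −0.78 to 0.35, adjusted p = 0.77).

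**Figure D3:**
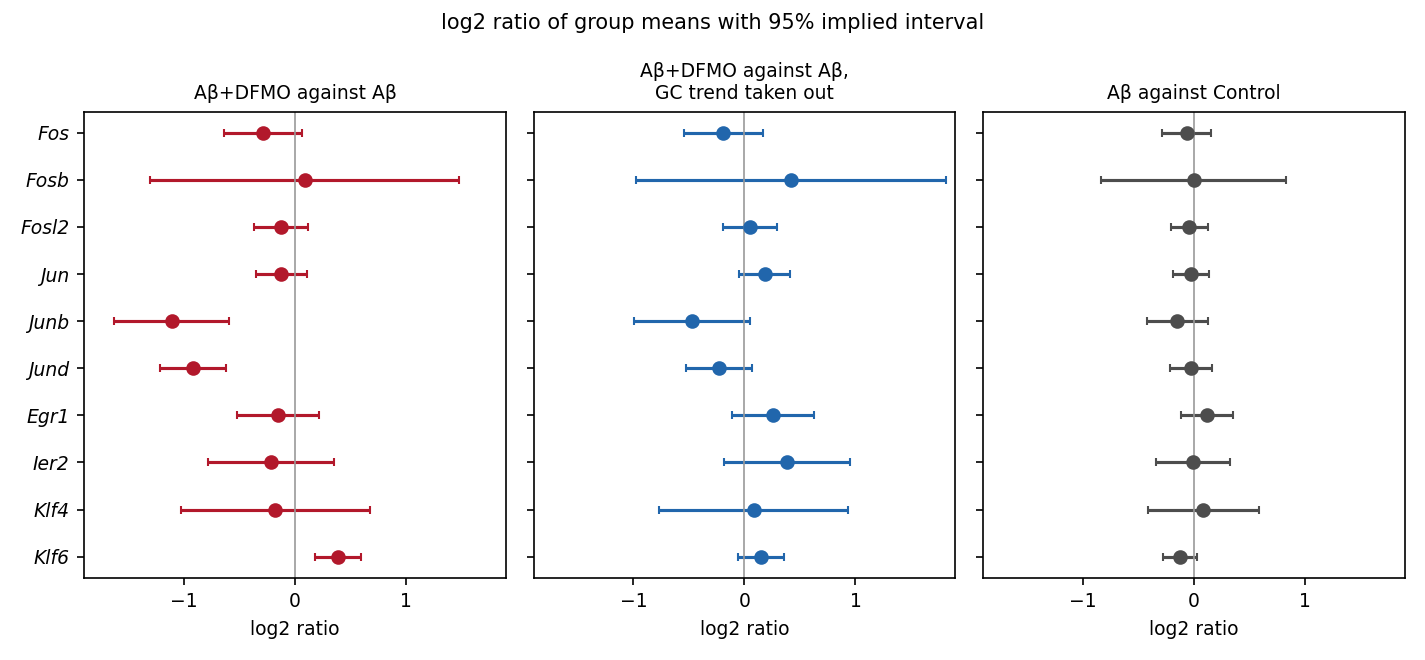
log2 ratio of the authors' group means for each gene with implied 95% intervals, for Aβ+DFMO against Aβ, the same with the GC trend taken out, and Aβ against Control. Intervals of Junb, Jund and Klf6 lie clear of 0 in the first panel and reach across 0 in the second, and all 10 reach across 0 in the third.

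GC content of the transcript moved with the Aβ+DFMO ratio in these genes and across the table. The 10 transcripts had a median GC content of 55.8%, against 49.7% over 11660 genes whose Aβ mean reached 200. Jund, at 67.1%, and Junb, at 62.6%, were the highest of the 10, and Klf6, at 42.4%, was the lowest. Across the 10 genes Pearson's r between GC content and the log2 ratio was −0.82 and Spearman's rho −0.59, and across the 11660 genes they were −0.68 and −0.71. All points share the single Aβ+DFMO library, and genes are not independent replicates.

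The GC classes of the 3 called genes had median log2 ratios of the same sign as those genes. All 3, Junb (−1.11), Jund (−0.92) and Klf6 (0.39), lay further from 0 than the medians of their classes. Of the 413 genes with 60 to 65% GC, the class of Junb and Ier2, 41.2% were called lower and none higher in the authors' deposited table, with a median log2 ratio of −0.61. Of the 36 genes above 65%, the class of Jund, 47.2% were called lower, with a median of −0.85. The 2311 genes with 40 to 45% GC, the class of Klf6, had a median of 0.24, and 14.9% were called higher and 0.606% lower.

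With the running median over GC content subtracted, no member of the 10 passed, at a background of 1.55% of 18459 genes called, and none had an unadjusted p under 0.05 in the Wald test on the implied standard errors. Junb then stood at −0.47 (adjusted p = 0.65), Jund at −0.23 (adjusted p = 0.784) and Klf6 at 0.15 (adjusted p = 0.816). Fos stood at −0.19, and the other 6 genes lay above 0, between 0.05 for Fosl2 and 0.42 for Fosb. Ier2 lay at 0.38, so the genes with 48 reads each stood on opposite sides of the trend, with implied 95% intervals of −0.184 to 0.947 for Ier2 and −0.996 to 0.047 for Junb that overlap. The running median spans 500 genes, fewer at either end of the GC range, and flattens above about 62% GC. It was −0.69 at Jund, against the class median of −0.85. The treatment and the GC trend of its only library cannot be told apart.

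**Figure D4:**
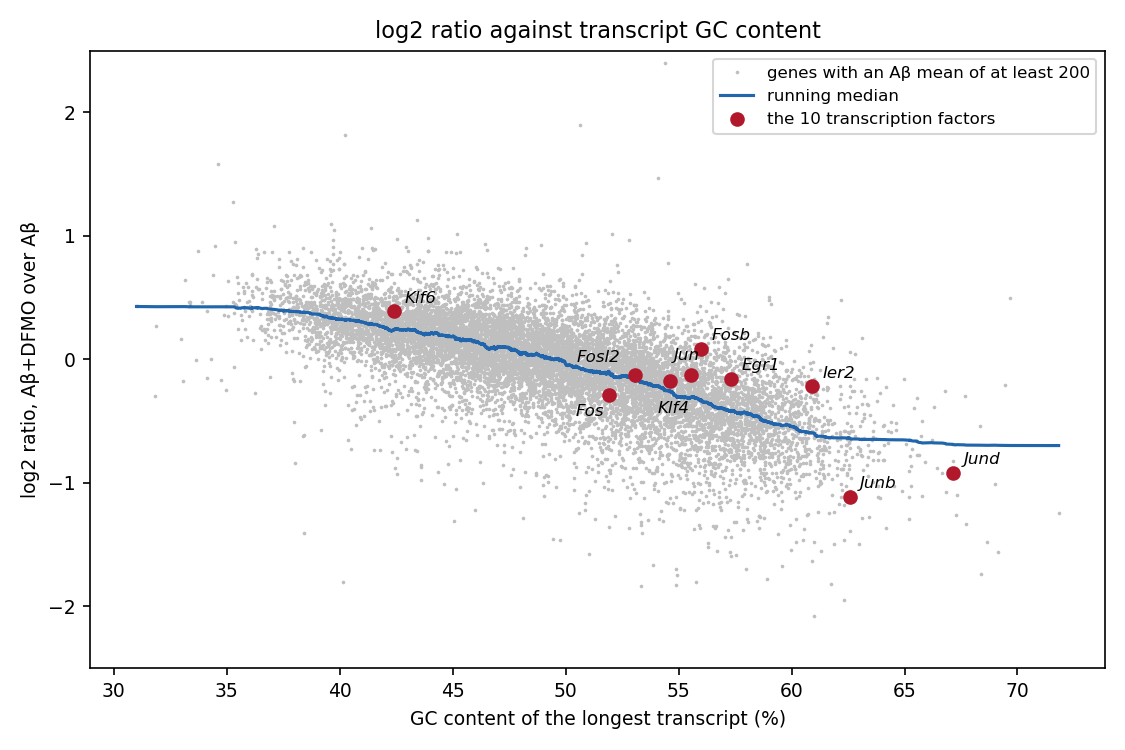
log2 ratio of Aβ+DFMO over Aβ against GC content of the longest transcript (%), for 11656 of 11660 genes whose Aβ mean reached 200 (grey; 4 lie outside the axis), with their running median (line) and the 10 genes (labelled points). Klf6 lies at the left above 0, Junb and Jund at the right below the line, and the other 7 between −0.29 and 0.09.

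Exons and AU-rich pentamers were counted in the transcripts of the 10 genes. Jun, Junb, Jund and Ier2 each have a single exon in their longest transcript. The AU-rich pentamer AUUUA occurred in the 3′ UTR of 9 of the 10, all except Ier2, against 73.0% of 10924 protein-coding genes. Fosl2 held 8 copies, Klf6 7, Fos 4, Jun 4, Junb 2 and Jund 1, and the density over the 10 was 1.88 per kb of 3′ UTR, against 1.85 in those protein-coding genes.

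None of the 10 genes passed in Aβ against Control, the comparison that asks what amyloid-β changes in these cultures. By the authors' DESeq2 test 0.287% of all genes were called there, and at an unadjusted p under 0.05 there were 0 of the 10, against 1.72% of all genes. Log2 ratios in the authors' deposited table ran between −0.15 for Junb and 0.12 for Egr1, with a median of −0.02 against 0.0024 over all genes. Klf6 (−0.12, implied 95% interval −0.28 to 0.03) had the smallest p-value in the authors' deposited table, 0.111. For the well measured genes the implied intervals were narrow: −0.19 to 0.13 for Jun, −0.21 to 0.13 for Fosl2, −0.21 to 0.17 for Jund and −0.28 to 0.15 for Fos in the authors' deposited table. For Fosb the interval ran from −0.84 to 0.83 and for Klf4 from −0.42 to 0.59. The p-values of this comparison lay high over the whole table, so these intervals may be too wide.

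Aβ+DFMO against Control has no test and uses the means already given. The log2 ratio of means was −1.26 for Junb, −0.94 for Jund, −0.36 for Fos and 0.27 for Klf6. The other 6 lay between −0.22 for Ier2 and 0.09 for Fosb, and the median of the 10 was −0.16, against 0.018 over all genes. These ratios share the Aβ+DFMO mean with Aβ+DFMO against Aβ and the Control mean with Aβ against Control.

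Genes that switch the class on were described by a list of 28 kinases and factors, all measured. In Aβ+DFMO against Aβ 1 was called higher and 4 lower, against 4.0% and 5.18% of all genes, with a median log2 ratio of −0.06. Mapk3 (ERK1, log2 ratio −0.54), Map2k2 (MEK2, which activates ERK, −0.64) and Rps6ka1 (an ERK-activated kinase, −0.79) fell in the authors' deposited table, with adjusted p-values of 0.00316, 0.00942 and 0.0165. Their transcripts had 57.6%, 60.4% and 57.3% GC, and with the GC trend taken out none of the 28 passed. In Aβ against Control the authors' DESeq2 test called 0 of the 28, against 0.287% of all genes, with a median of −0.02.

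Of 36 other immediate early genes measured, 1 rose and 1 fell in Aβ+DFMO against Aβ, with a median log2 ratio of −0.17. Over all genes, 4.0% were called higher and 5.18% lower in that comparison. Mcl1, which protects against apoptosis, had authors' means of 12989.4 in Aβ+DFMO, 10502.2 in Aβ and 10205.2 in Control, and its log2 ratio of 0.31 passed in the authors' deposited table (adjusted p = 0.0227). Socs3, a feedback inhibitor of cytokine signalling, had authors' means of 573.8 in Aβ+DFMO, 1088.5 in Aβ and 1244.9 in Control, with a log2 ratio of −0.92 (adjusted p = 0.000837) in the authors' deposited table. The close relatives Egr2 (log2 ratio 0.14), Egr3 (−0.22) and Klf2 (0.29) missed the threshold in the authors' deposited table, at 11, 4 and 50 reads. Of 15 other dimer partners and related leucine zipper factors, 1 rose and 1 fell, with a list median of −0.22, and Atf2, a partner of JUN, had a log2 ratio of 0.43 (adjusted p = 0.0124) in the authors' deposited table. Of 19 feedback inhibitors and of 12 other KLF genes none passed in the authors' DESeq2 table, with medians of −0.05 and −0.06. With the GC trend taken out, no member of these 4 lists passed, against 1.55% of 18459 genes. With GC taken as the mean over a gene's transcripts, 2 of the 36 other immediate early genes passed, Mcl1 among them. No member of the other lists did, and over all genes 324 of 18459 passed. In Aβ against Control the authors' DESeq2 test called no member of the 4 lists, against 0.287% of all genes.

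Of 17 measured genes known as AP-1 or EGR targets, 1 rose and 2 fell in Aβ+DFMO against Aβ, against 4.0% and 5.18% of all genes. These 3 also passed with the GC trend taken out, against 1.55% of 18459 genes. The median of the list was −0.12 before and 0.03 after. The metallothionein gene Mt2 had authors' means of 14032.9 in Aβ+DFMO, 22887.0 in Aβ and 22416.5 in Control, a log2 ratio of −0.71 (adjusted p = 2e-10) in the authors' deposited table and −0.40 (adjusted p = 0.0051) without the trend. Hmox1, which breaks down haem, had a log2 ratio of −0.65 (adjusted p = 0.000238) in the authors' deposited table and −0.47 (adjusted p = 0.0482) without the trend. Hbegf, a ligand of the EGF receptor, had 0.44 (adjusted p = 0.0145) in the authors' deposited table and 0.46 (adjusted p = 0.0367) without it. No target was called in Aβ against Control by the authors' DESeq2 test, against 0.287% of all genes.

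Heat shock genes, which rise with the handling of cells, were not uniform. Of 10 measured, 2 were called higher in each comparison and none lower. Over all genes, 0.287% were called in Aβ against Control, and 4.0% were called higher in Aβ+DFMO against Aβ. Hspa1a (0.74, adjusted p = 0.0254) and Hspa1b (0.98, adjusted p = 0.000612) rose in Aβ against Control in the authors' deposited table, near-identical genes whose reads counting could split, while the 10 transcription factors did not pass there. Hsp90aa1 (0.39, adjusted p = 0.000456) and Hsph1 (0.34, adjusted p = 0.029) rose in Aβ+DFMO against Aβ in the authors' deposited table, and neither of them passed with the GC trend taken out. With GC taken as the mean over a gene's transcripts, 1 of these 2 genes passed. Hspa1a (−0.62) and Hspa1b (−0.95) had negative log2 ratios in Aβ+DFMO against Aβ and did not pass there. The part of the heat shock genes in the results on the 10 genes was not tested.

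Markers of other cells moved with the groups as well. Over all genes, 0.287% were called in Aβ against Control and 9.18% in Aβ+DFMO against Aβ. With the GC trend taken out, the latter share was 1.55% of 18459 genes. Of 14 microglial markers 7 fell in Aβ against Control and 4 in Aβ+DFMO against Aβ, and the summed authors' mean of the 14 was 18126 in Aβ+DFMO, 23412 in Aβ and 33042 in Control. Of 10 oligodendrocyte markers 8 fell in Aβ+DFMO against Aβ, with sums of 25458 in Aβ+DFMO, 46413 in Aβ and 47032 in Control, and of 10 astrocyte markers 4 fell, with sums of 146536, 185843 and 186799 in the same groups. Of these calls in Aβ+DFMO against Aβ, 1 microglial, 4 oligodendrocyte and 3 astrocyte ones were also lower with the GC trend taken out, where 1 further astrocyte marker was called lower. With GC taken as the mean over a gene's transcripts, 2 astrocyte calls in place of 3 were also lower. Of the neuronal, fibroblast and mural, ependymal and endothelial markers measured, 3 of 7, 2 of 8, 1 of 5 and 0 of 4 were called in Aβ+DFMO against Aβ, and by the authors' DESeq2 test none in Aβ against Control. The authors' table held 7 of 8 listed neuronal and 4 of 6 listed endothelial markers, and all markers of the other cell type lists. No marker measured was at 0 in any group. In Aβ+DFMO, however, 2 of the 4 endothelial, 1 of the 5 ependymal and 1 of the 8 fibroblast and mural markers were under 3 reads' worth. In bulk RNA, fewer cells of a type and less RNA per cell cannot be told apart, and the part of these markers in the levels of the 10 genes was not tested.

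The genes whose pair of log2 ratios lay nearest to the median pair of the 10, among 11772 other genes whose Aβ mean reached 200, were Smap2, Atp6v0a2, Trp53cor1, Fam107a and Kank2. Euclidean distances on the log2 scale were between 0.0014 for Smap2 and 0.0058 for Kank2. The likeness rests on 3 group means only.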

How the data were processed

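RNA of 5 libraries was measured. The submitters' processing notes name STAR 2.7.3a, Partek, DESeq2 and FastQC and the builds mm10 and GRCm39, with no role for each; counter and annotation: not given in the sources used here. Per the file headers, the authors' table holds group means (a normalized signal of unnamed scaling), their ratio, log2 ratio and a signed fold change (a score, not used), and a p-value with an adjusted p-value. The log2 ratios were checked to be those of the means, and adjusted p-values to be Benjamini-Hochberg over all 18783 genes. A further deposited file gives reads and the percent of reads in exons per library (84.42 to 85.18). The design named a count test first; the values used here being group means, the authors' p-values were taken as deposited.

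Computed here were the implied standard error (the log2 ratio divided by the normal deviate of its p, assuming a Wald test) and its 95% interval (1.96 errors either way). Levels per kb and a running median of the log2 ratio over transcript GC content (GC for 98.3% of genes) were also computed. The median took a window of 500 genes whose Aβ mean reached 200, fewer at either end of the GC range. The residual was tested by its implied error. That step was run on simulated data with a straight-line trend. The recovered trend was checked there only away from the lowest and highest GC contents. Transcripts and coordinates are GENCODE M21 (GRCm38), which may not be the authors' annotation; promoters are RefSeq GRCm38.p6. Python 3.11.15 with scipy 1.17.1 was used.

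Named genes were the 10 members, the relatives Fosl1, Egr2, Egr3 and Klf2, up to 3 called genes of smallest adjusted p per list and comparison, and the 5 nearest genes; of the marker lists only counts and sums are given, beside Gfap. One called gene that this rule names is not reported here. Members and lists were chosen with earlier results of these data known.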

Additional observations from a re-analysis of the deposited data

How the results depend on the processing

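No paired analysis was possible because the table holds group means without replicate numbers, and leaving out libraries or rerunning other tools on counts was not run for the same reason; the doubtful Aβ+DFMO library is its whole group. Of the 10 genes, Aβ against Control called 0 under each of the 6 alternatives. In Aβ+DFMO against Aβ 0 in place of 3 genes passed without the GC trend. Taking GC as the mean over a gene's transcripts, an alternative chosen after seeing the data, also left 0, with Junb at −0.48, Jund at −0.27 and Klf6 at 0.10. Log2 ratios of 5 genes that were not called turned from negative to positive without the trend: Fosl2 (0.0517, and 0.0148 with the other GC measure), Jun (0.1824 and 0.1554), Egr1 (0.2609 and 0.1384), Ier2 (0.3815 and 0.3753) and Klf4 (0.0818 and 0.4481). Over all genes 286 were called without the trend (151 higher and 135 lower), 201 of them among the 1724 called with it (751 higher and 973 lower); with the other GC measure 324 were called (190 higher and 134 lower), 217 of them among the 1724, each counted as shared only in the same direction. Of 14 calls among the 131 measured genes of the 7 related lists 3 passed without the trend, and with the other GC measure 7 genes passed, 5 of them among the 14. An adjusted p under 0.01 left 887 calls over all genes and 6 in those lists, and 1 of 2 list calls in Aβ against Control, the fewer by construction. Adjusting over the genes whose Aβ mean reached 200, recentring on their median (a shift of −0.02, with 887 higher and 881 lower calls over all genes) and an adjusted p under 0.1 kept the 3 calls. Depth limits Fosb, Klf4, Ier2 and Junb most, at 8 to 48 reads in Aβ+DFMO.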
